A study of Mus musculus with 12 samples.

Results

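The genes described here are 40 genes of autophagy and the lysosome, listed by name as known parts of this route, by a rule that uses no measured value. All 40 were found among the 13304 genes listed for mouse liver. They were compared between livers of Maf1-/- mice (Maf1 KO, 5 libraries) and livers of wild-type mice (WT, 7 libraries), with 1 library per mouse of strain C57Bl/6J. All mice, of both genotypes, ate chow freely until 12 to 14 weeks of age, were fasted overnight and were refed for 4 h before sacrifice, so every liver is from a fed animal after a fast. MAF1 is a repressor of RNA polymerase III that responds to nutrient and stress signals, and the study describes it as acting in fasted and refed mice alike. The mutant mice lack it in the whole body, so a difference in liver need not arise in the liver. The sex of the mice is not given in the sources used here.

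Autophagy is the delivery of cytoplasm to the lysosome. In the liver it runs high in the fasted state, when it supplies amino acids, fatty acids and glucose, and is held back after a meal, when the kinase mTORC1 is active. The ULK1 kinase complex and the PI3-kinase complex of Beclin 1 start the phagophore, ATG9 and WIPI proteins help it grow, and a conjugation machinery of ATG enzymes couples ATG8 proteins (LC3 and GABARAP) to its lipid, where cargo receptors such as p62 bind them. The closed autophagosome then fuses with the lysosome, whose V-ATPase acidifies it and whose hydrolases break down what it holds. Many of these genes are under the transcription factors TFEB and TFE3, which bind a palindromic E-box called the CLEAR element and are kept in the cytoplasm when mTORC1 is active.

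The promoters show where that element lies in the 40 genes. In RefSeq promoters (GRCm38.p6, 250 bases before to 50 bases after each start), 32 of the 40 genes had an entry, with 37 promoters between them. The letters TCACGTGA, searched on both strands (the word is its own reverse complement), were in 16.2% of these promoters, against 0.974% of all 32851 promoters and 1.76% of the 12477 promoters of genes in the expression table. The shorter E-box CACGTG, which the longer word contains, was in 32.4% of the 37 promoters, against 7.15% of all promoters and 9.71% of those of genes in the table. Since many of the 40 genes are textbook targets of TFEB, these shares describe the list and are no result of the comparison. The 6 genes with the longer word are shown because they are the members for which a TFEB element can be pointed to, and the capitals mark each TCACGTGA.

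Ctsa (carboxypeptidase, chr2:164833736-164833784, plus strand): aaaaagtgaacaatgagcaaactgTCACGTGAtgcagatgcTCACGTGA
Ctsd (aspartic protease, chr7:142387895-142387950, minus strand): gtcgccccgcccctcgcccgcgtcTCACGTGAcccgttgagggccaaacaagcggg
Mcoln1 (calcium channel, chr8:3500449-3500504, plus strand): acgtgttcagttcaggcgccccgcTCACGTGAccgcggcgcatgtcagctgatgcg
Atp6v0d1 (proton pump, chr8:105566061-105566092, minus strand): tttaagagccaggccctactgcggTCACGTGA
Atp6v1a (proton pump, chr16:44139360-44139415, minus strand): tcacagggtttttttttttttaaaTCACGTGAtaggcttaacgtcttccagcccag
Atg3 (conjugation enzyme, chr16:45158733-45158788, plus strand): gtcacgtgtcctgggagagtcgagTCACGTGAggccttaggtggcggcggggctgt

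The first base of the element lay 13 bases before the start in Ctsa, 99 in Ctsd, 46 in Mcoln1, 4 in Atp6v0d1, 132 in Atp6v1a and 72 in Atg3. Ctsa alone among the 6 held 2 copies, the second beginning at base 5 of the transcript. A match is a match of letters and not a site shown to be bound.

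Levels below are the authors' log2 values of RPM, the reads of a gene scaled to a common library size, on which 1 unit is a factor of 2 and which are not divided by gene length. The libraries held 34709661 to 41931441 reads in the listed genes in Maf1-/- liver (median 38637056) and 35003720 to 55787438 in WT liver (median 41295043). Maf1 itself had 5 to 52 reads in the Maf1-/- libraries against 254 to 534 in the WT libraries, at −4.79 ± 0.44 on the log2 scale (SE, adjusted p = 6.0e-04 by limma), so the labels hold in every library. Hepatocyte markers (8 genes) summed to 122264 to 160860 RPM in Maf1-/- and 115086 to 146854 in WT liver, with 5 of the 8 log2 fold changes negative. At an unadjusted p under 0.05 (limma) 1 marker, Cps1 at 0.58, was higher, where 9.90% of all genes were higher. The library WT 2 stood apart: GC-rich genes ran low in it, with a GC slope of −0.57 (log2 per 10 points), while the Maf1-/- libraries had slopes of −0.54 to 0.077 and the other 6 WT libraries 0.14 to 0.35. Groups that lie apart only when WT 2 is set aside were picked after the values were seen. The share of all genes that then lie apart was not computed. Without WT 2, 25.8% of all genes were lower at an unadjusted p under 0.05 (limma), against 13.2% with it. In bulk liver, fewer cells of a type and less RNA per cell cannot be told apart. All p-values are between mice, and differences are Maf1-/- over WT.

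None of the 40 genes passed the thresholds used by the study, an adjusted p under 0.01 with an absolute log2 fold change above 0.5 (limma over all genes), where 0.0150% of all genes passed, the 2 being Maf1 and Gm35339. The study applied these thresholds in a fit with factors of unwanted variation, which this fit lacks. It reported many more genes, most of them lower in Maf1-/- liver. At an unadjusted p under 0.05, 8 of the 40 were lower in Maf1-/- liver, where 13.2% of all genes were, and 2 were higher, where 9.90% of all genes were. After centring each library on its median these were 5 and 3 of the 40, beside 9.31% and 14.6% of all genes. Of the 40 log2 fold changes 27 were negative, where 52.9% of all genes were negative, and their median was −0.165, against −0.025 over all genes. The 5 Maf1-/- values and the 7 WT values of a gene overlapped for all 40, while they lay fully apart for 0.586% of all genes. The lowest adjusted p among the 40 was 0.19. The fold changes largest in size were those of Gaa (acid alpha-glucosidase) and Map1lc3a (LC3A), for which the fitted Maf1-/- level was 0.483 and 0.514 of the WT level.

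**Figure D1:**
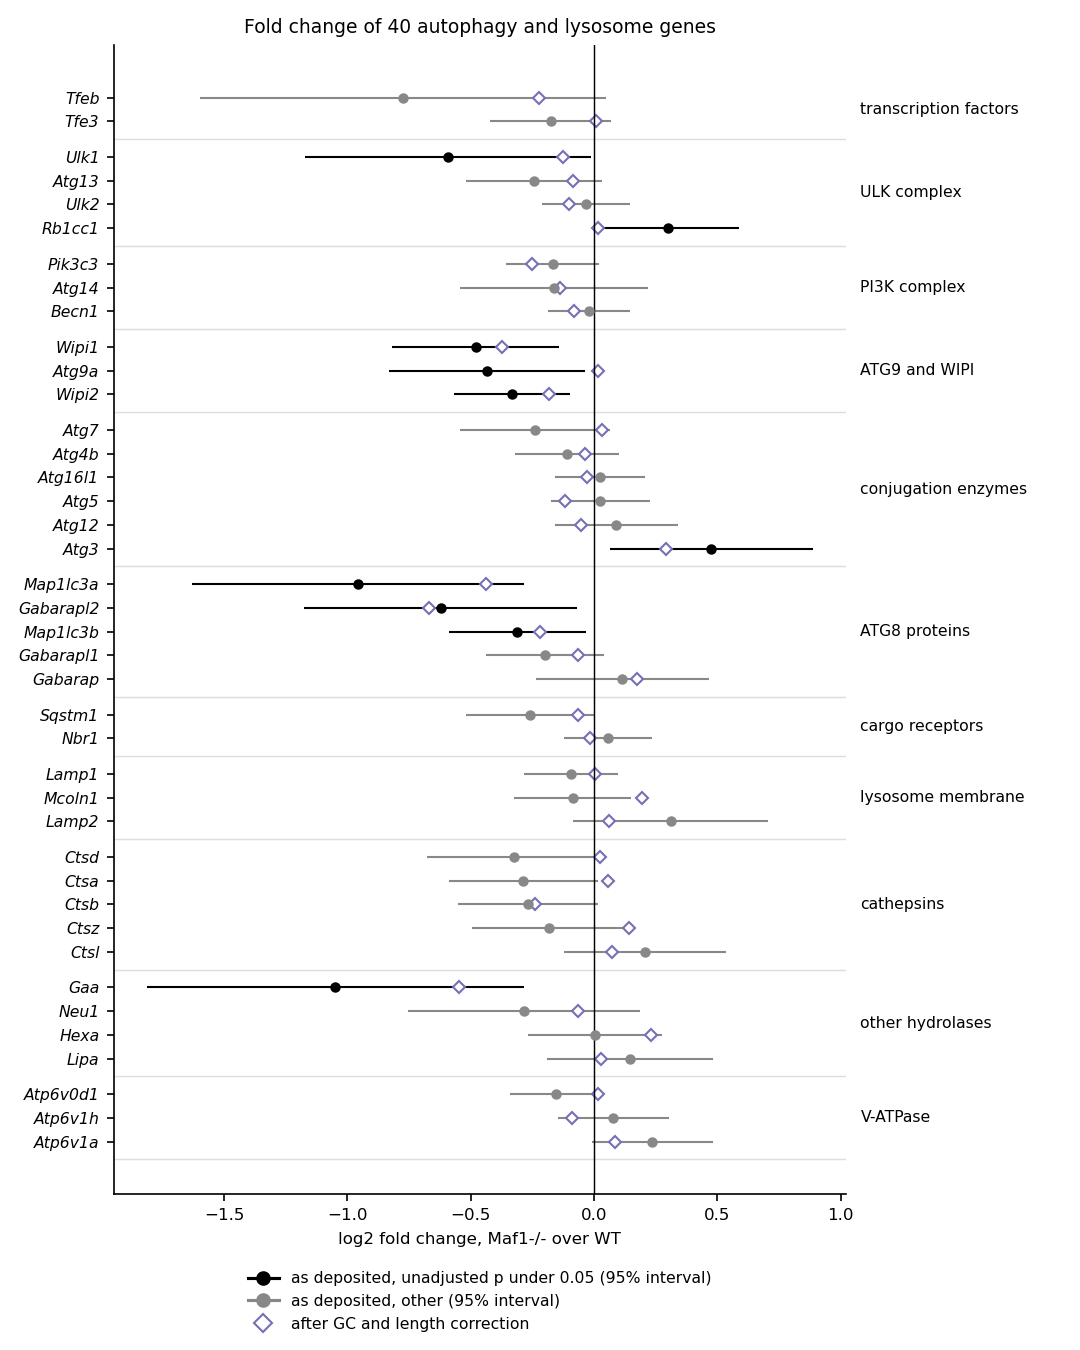
The log2 fold change (horizontal axis, Maf1-/- over WT) of each of the 40 genes, grouped by role, with its 95% interval from limma (filled circles, black where the unadjusted p was under 0.05) and the value after correction of each library for GC content and gene length (open diamonds). The 8 lower genes at that p are in the ULK, ATG9 and WIPI, ATG8 and hydrolase groups, and the diamonds lie nearer 0 than the circles for Gaa, Map1lc3a, Tfeb and Ulk1.

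The transcription factors were the first group. Tfeb (chromosome 17, 47737030 to 47792419, plus strand, GRCm38 as are all gene positions here) is the master regulator of lysosome genes. It had log2 levels of 1.36, 1.80, 0.62, −0.01 and 0.97 in the 5 Maf1-/- livers, against 0.15, 1.96 and 2.22 (lowest, median and highest) in WT livers. All 5 Maf1-/- livers lay below the WT median, but the lowest WT liver, WT 2, lay below 4 of the 5. Its log2 fold change was −0.78 ± 0.38 (SE, 95% interval −1.60 to 0.05, adjusted p = 0.23 by limma). The gene was thinly covered, with 36 to 134 reads in Maf1-/- and 45 to 227 in WT libraries. Tfe3 (chromosome X, 7762560 to 7775202, plus strand), its close relative, had 4.46, 4.64, 4.48, 4.30 and 4.43 in Maf1-/- livers, against 4.34, 4.61 and 5.02 in WT livers, at −0.18 ± 0.11 on the log2 scale (SE, adjusted p = 0.32), that was 0.0057 after a trend on GC content and exon length was taken out of each library (the GC and length correction). The WT range of Tfe3 covered 4 of the 5 Maf1-/- livers.

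In the ULK complex, which starts autophagosome formation, the kinase gene Ulk1 and the scaffold gene Rb1cc1 had fold changes of opposite sign as deposited. After the GC and length correction these were −0.12 for Ulk1 (unadjusted p = 0.23) and 0.014 for Rb1cc1 (unadjusted p = 0.87, limma). Ulk1 (chromosome 5, 110784488 to 110810097, minus strand), the kinase that AMPK activates and mTORC1 restrains, had 3.71, 3.92, 3.14, 2.45 and 3.20 in Maf1-/- livers, against 2.97, 4.06 and 4.30 in WT livers. Its log2 fold change was −0.59 ± 0.27 (SE, unadjusted p = 0.045, adjusted p = 0.21 by limma), with all 5 Maf1-/- livers below the WT median and WT 2 the lowest WT liver. Rb1cc1 (chromosome 1, 6206197 to 6276648, plus strand), which encodes the scaffold FIP200, had 6.51, 6.10, 6.62, 6.65 and 6.56 in Maf1-/- livers, against 6.03, 6.10 and 6.65 in WT livers. Here 4 of 5 Maf1-/- livers lay above the WT median, Maf1-/- 2 lay just below it, and WT 2 was as high as the Maf1-/- livers. The log2 fold change was 0.30 ± 0.13 (SE, unadjusted p = 0.041, adjusted p = 0.21 by limma). Ulk2, the second ULK kinase, and Atg13, the adaptor that mTORC1 phosphorylates, had log2 fold changes of −0.034 and −0.24. The PI3-kinase complex, which makes the lipid PI3P on the phagophore, had log2 fold changes of −0.020 for Becn1 (Beclin 1), −0.17 for its kinase subunit Pik3c3 and −0.16 for Atg14, and none of the 3 had an unadjusted p under 0.05. Pik3c3 had one of 0.0093 after the GC and length correction, at −0.25.

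In the group of ATG9 and the WIPI proteins 3 of 3 members were lower at an unadjusted p under 0.05, where 13.2% of all genes were lower (limma). Their adjusted p was 0.19 to 0.20. After the GC and length correction Wipi1 was at −0.37 (unadjusted p = 0.0065 by limma), Wipi2 at −0.18 (0.077) and Atg9a at 0.018 (0.86). Wipi2 (chromosome 5, 142627698 to 142670588, plus strand) reads PI3P and recruits ATG16L1. It had 6.30, 6.27, 6.14, 6.08 and 6.27 in Maf1-/- livers, against 6.18, 6.62 and 6.75 in WT livers, and only WT 2 reached into the Maf1-/- range. Limma gave −0.33 ± 0.11 (log2, SE), with an exact permutation p of 0.0088 over the 792 divisions of the libraries, 2-sided. Wipi1 (chromosome 11, 109573331 to 109611967, minus strand), a second PI3P reader, had 3.19, 3.24, 2.71, 2.45 and 2.95 in Maf1-/- livers, against 2.94, 3.42 and 3.68 in WT livers, at −0.48 ± 0.16 on the log2 scale (SE, exact permutation p = 0.015). Again the only WT liver inside the Maf1-/- range was WT 2. For neither gene was the share of all genes that lie apart without WT 2 computed. Atg9a (chromosome 1, 75180860 to 75192196, minus strand), the lipid scramblase of the vesicles that seed the phagophore, had 4.46, 4.25, 4.13, 3.58 and 4.03 in Maf1-/- livers, against 3.87, 4.66 and 4.81 in WT livers. Its log2 fold change was −0.43 ± 0.18 (SE, unadjusted p = 0.035), and 0.018 after the GC and length correction.

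Of the 6 conjugation genes 1, Atg3, was higher at an unadjusted p under 0.05, where 9.90% of all genes were higher (limma). ATG3 is the E2-like enzyme that hands ATG8 proteins to phosphatidylethanolamine, and its promoter holds the element shown above. Atg3 (chromosome 16, 45158785 to 45188538, plus strand) had 6.90, 6.33, 7.12, 7.30 and 6.98 in Maf1-/- livers, against 6.11, 6.36 and 7.03 in WT livers. On the log2 scale the change was 0.48 ± 0.19 (SE, unadjusted p = 0.026, adjusted p = 0.20 by limma). Apart from WT 2 the WT livers reached 6.68, and of the Maf1-/- livers only Maf1-/- 2 lay below that. The other 5 had log2 fold changes of −0.24 for Atg7 (the E1-like enzyme), −0.11 for Atg4b (the protease that trims ATG8 proteins), 0.0255 for Atg5, 0.090 for Atg12 and 0.024 for Atg16l1, the last 3 forming the E3-like complex. No member of that complex had a 95% interval that reached beyond 0.34 in size.

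The ATG8 proteins, which coat the phagophore, differed among themselves. Map1lc3a (chromosome 2, 155276297 to 155278073, plus strand) had 3.73, 3.77, 2.85, 2.85 and 3.41 in Maf1-/- livers, against 2.88, 4.50 and 4.74 in WT livers. The other 6 WT livers started at 4.12, above every Maf1-/- liver, and WT 2 lay with the 2 lowest of these. That split without WT 2 has no share of all genes beside it. The log2 fold change was −0.96 ± 0.31 (SE, unadjusted p = 0.0089, adjusted p = 0.19 by limma, exact permutation p = 0.023). Map1lc3b (chromosome 8, 121590361 to 121598760, plus strand), the LC3 protein most used as a marker of autophagosomes, had 5.77, 5.51, 5.33, 5.44 and 5.68 in Maf1-/- livers, against 5.38, 5.93 and 6.04 in WT livers, at −0.31 ± 0.13 on the log2 scale (SE, unadjusted p = 0.030). Its mean in Maf1-/- livers was 0.806 of that in WT livers, with 5 of 5 below the WT median.

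Gabarapl2 (chromosome 8, 111940703 to 111953612, plus strand), which encodes GATE-16, had a pattern of its own. It had 3.06, 3.72, 3.03, 3.02 and 3.16 in Maf1-/- livers, against 2.97, 4.07 and 4.32 in WT livers. In WT liver the 2 lowest values were 2.97 in WT 1 and 3.05 in WT 2, and the other 5 lay at 3.98 or above. Of the Maf1-/- livers 4 lay at 3.02 to 3.16, and the highest, Maf1-/- 2 at 3.72, lay between these and the 5 upper WT livers. Between genotypes the log2 fold change was −0.62 ± 0.26 (SE, unadjusted p = 0.031, adjusted p = 0.20 by limma). It was −0.67 after the GC and length correction. The remaining pair, Gabarapl1 and Gabarap, had log2 fold changes of −0.20 and 0.11, with unadjusted p of 0.095 and 0.50.

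**Figure D2:**
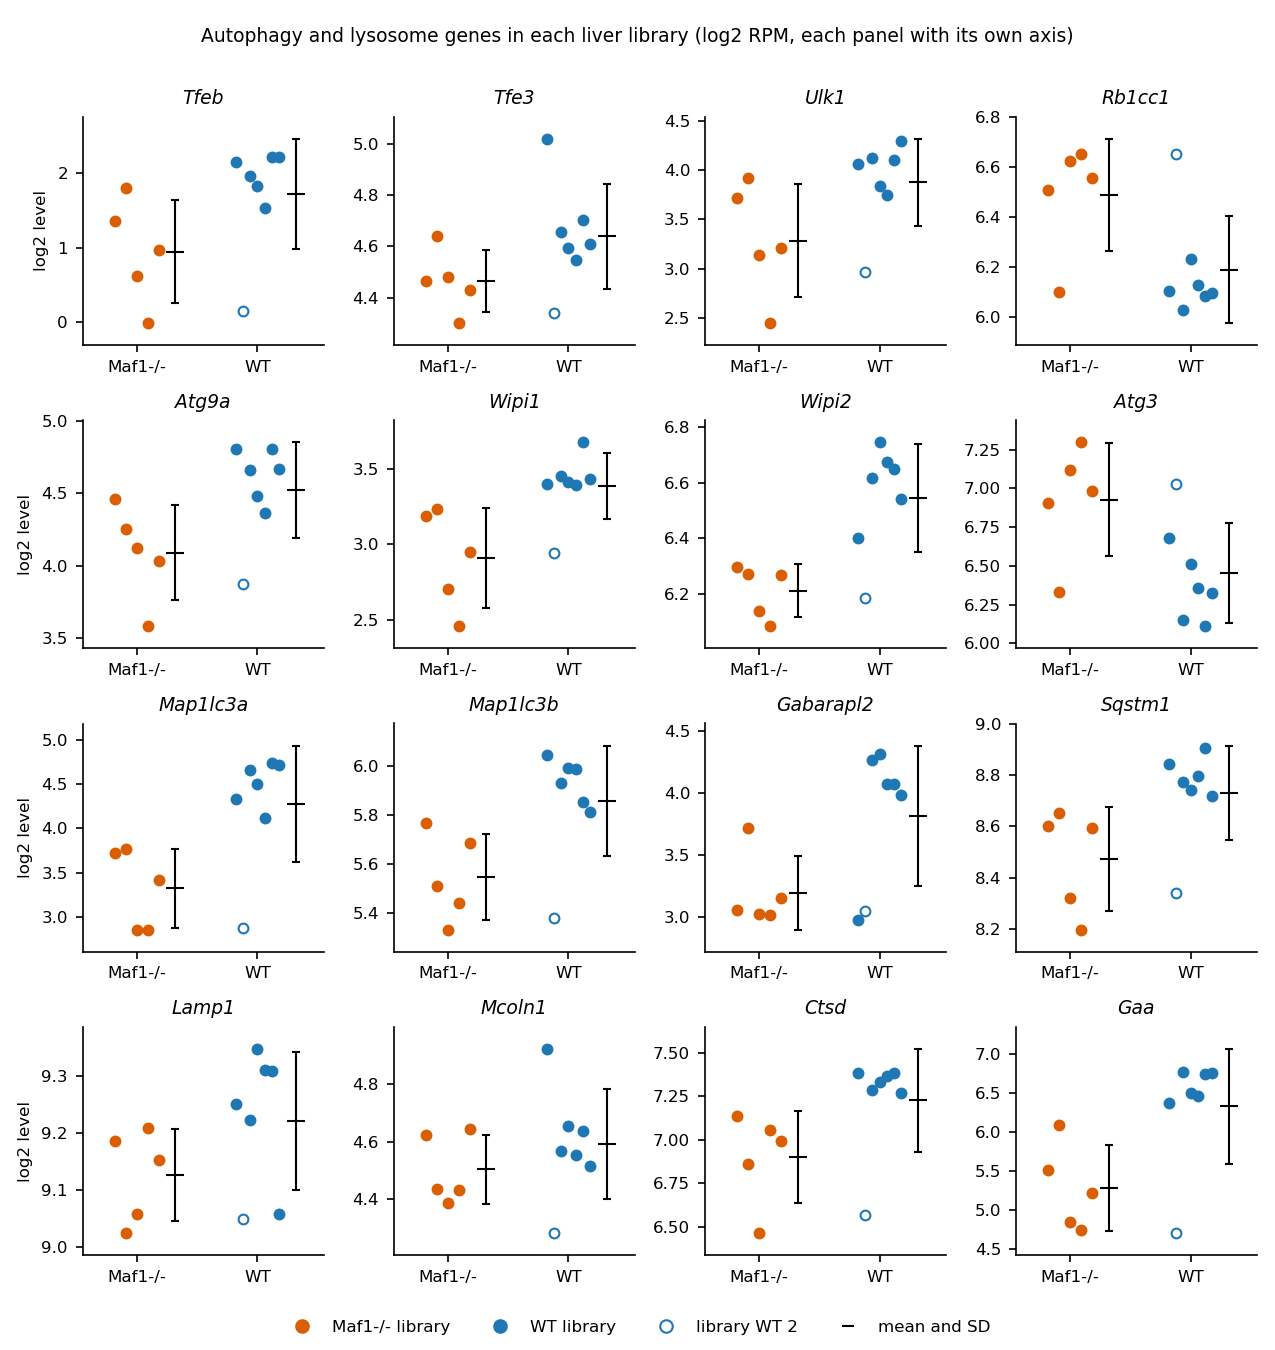
Log2 levels of the 16 genes given with a value in each library, with Maf1-/- livers on the left and WT livers on the right of each panel, black marks for mean and SD (n = 5 and n = 7) and an open circle for the library WT 2. Groups overlap in each panel, and in most panels the open circle lies among the Maf1-/- points.

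Cargo receptors and the lysosome membrane had no member at an unadjusted p under 0.05 (limma). Sqstm1 (chromosome 11, 50199366 to 50210827, minus strand) encodes p62, which links ubiquitylated cargo to LC3. It had 8.60, 8.65, 8.32, 8.20 and 8.60 in Maf1-/- livers, against 8.34, 8.77 and 8.90 in WT livers. All 5 Maf1-/- livers lay below the WT median, and the log2 fold change was −0.26 ± 0.12 (SE, unadjusted p = 0.051, adjusted p = 0.22 by limma). Nbr1, the second receptor of the list, had a log2 fold change of 0.056 and rested on at least 10220 reads in every library. Lamp1 (chromosome 8, 13159161 to 13175338, plus strand), a heavily glycosylated coat protein of the lysosome, had 9.19, 9.02, 9.06, 9.21 and 9.15 in Maf1-/- livers, against 9.05, 9.25 and 9.35 in WT livers. Its log2 fold change of −0.095 (SE 0.088, 95% interval −0.28 to 0.10) was 0.0051 when each library was centred on its own median. Mcoln1 (chromosome 8, 3500457 to 3515232, plus strand), which encodes the calcium channel TRPML1, had 4.62, 4.44, 4.39, 4.43 and 4.64 in Maf1-/- livers, against 4.28, 4.57 and 4.92 in WT livers. Its log2 fold change of −0.087 (SE 0.11, 95% interval −0.32 to 0.15) was 0.013 after centring and 0.19 after the GC and length correction. Lamp2, needed for fusion of autophagosomes, had a log2 fold change of 0.31 with a 95% interval of −0.08 to 0.70.

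Among the 9 hydrolases 1, Gaa, was lower at an unadjusted p under 0.05, where 13.2% of all genes were lower (limma). GAA breaks down glycogen in the lysosome and is the enzyme lacking in Pompe disease. Gaa (chromosome 11, 119267887 to 119285454, plus strand) had 5.51, 6.09, 4.85, 4.74 and 5.22 in Maf1-/- livers, against 4.70, 6.50 and 6.77 in WT livers. Without WT 2, the lowest WT liver was at 6.38, above the highest Maf1-/- liver, a split for which no share of all genes was computed. The log2 fold change was −1.05 ± 0.35 (SE, 95% interval −1.81 to −0.29, unadjusted p = 0.011, adjusted p = 0.19 by limma), and the exact permutation p was 0.034. That exact permutation p was 0.079 without Maf1-/- 3, 0.082 without Maf1-/- 4 and 0.052 without Maf1-/- 5.

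Ctsd (chromosome 7, 142375911 to 142388038, minus strand) encodes cathepsin D, a major aspartic protease of the lysosome with the element in its promoter. It had 7.13, 6.86, 6.46, 7.06 and 6.99 in Maf1-/- livers, against 6.57, 7.34 and 7.39 in WT livers. The 6 WT livers other than WT 2 were within 7.27 to 7.39, above all 5 Maf1-/- livers. No share of all genes was computed for this split, seen only with WT 2 set aside. With WT 2 the log2 fold change was −0.33 ± 0.16 (SE, unadjusted p = 0.066, adjusted p = 0.23 by limma), and it was 0.025 after the GC and length correction. The other cathepsins had log2 fold changes of −0.29 for Ctsa, −0.27 for Ctsb, −0.18 for Ctsz and 0.21 for Ctsl. Lipa (lysosomal acid lipase, which frees fatty acids from stored lipid), Hexa (a subunit of beta-hexosaminidase) and Neu1 (sialidase) had 0.15, 0.0048 and −0.28. The V-ATPase genes had −0.16 for Atp6v0d1 and 0.078 for Atp6v1h, while Atp6v1a, which encodes the catalytic subunit, had 0.24 with an unadjusted p of 0.058 (limma). No V-ATPase member had an unadjusted p under 0.05.

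Split by step, the 23 genes of autophagosome formation and cargo had 7 lower and 2 higher at an unadjusted p under 0.05, and the 15 lysosome genes had 1 lower and 0 higher. Over all genes 13.2% were lower and 9.90% higher at that p (limma). The 23 had a median of −0.167 on the log2 scale and the 15 one of −0.095. Whether the 2 sets differ was not tested. The genes with a TFEB element in the promoter had a median of −0.12 (6 genes, 4 negative), those with only the E-box −0.13 (6 genes, 4 negative), those with neither −0.22 (20 genes, 15 negative) and those without a promoter entry 0.0020 (8 genes, 4 negative).

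The fold changes ran with base composition. Over the 40 genes they had a Spearman rho of −0.78 with the GC content of the exons, and over 12482 genes with a GC content one of −0.69, points that share the same 12 libraries. Among the genes under 48% GC, 4 of 15 members were negative (median 0.078), where the median of all such genes was 0.16. From 48% to 54% GC, 13 of 14 were negative (median −0.22, all genes −0.088), and from 54% GC up 10 of 11 (median −0.33, all genes −0.40). The members were somewhat richer in GC than the table as a whole, with a median of 51.4% against 49.5%. Tfeb, at 60.4% GC, and Map1lc3a, at 63.6%, were among the richest, and Rb1cc1, at 37.5%, was the poorest.

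Once the trend of every library on GC and length had been taken out, the median over the 40 genes was −0.044, against 0.0067 over all genes, and the rho of the corrected changes with GC was −0.10. Gaa then had a log2 fold change of −0.55 (unadjusted p = 0.0033), Map1lc3a −0.44 (0.0044), Wipi1 −0.37 (0.0065), Pik3c3 −0.25 (0.0093), Map1lc3b −0.22 (0.026) and Gabarapl2 −0.67 (0.024), while Atg3 had 0.29 (0.044). Ulk1 had −0.12 (0.23), Tfeb −0.22 (0.13), Wipi2 −0.18 (0.077) and Rb1cc1 0.014 (0.87). Counted over the 40, 6 were lower and 1 was higher at an unadjusted p under 0.05 after the correction, where 9.74% of all genes were lower and 8.22% higher, and 0 passed the adjusted threshold (limma).

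**Figure D3:**
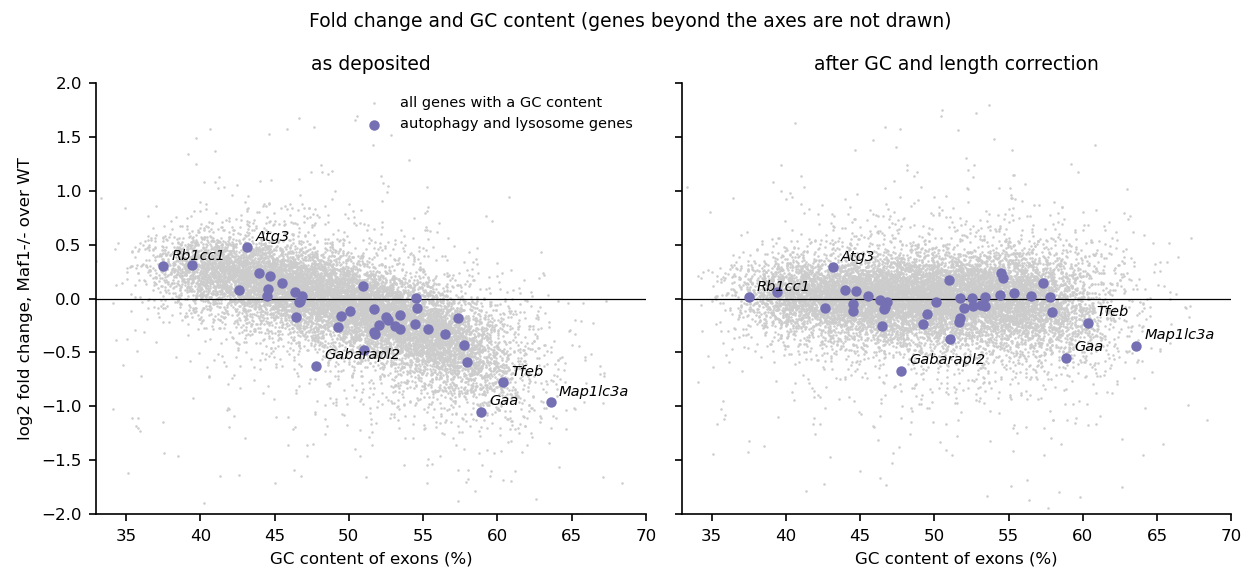
Log2 fold change (vertical axis, Maf1-/- over WT) against the GC content of the exons (horizontal axis, percent) for the 40 genes (purple) and for all genes with a GC content (grey), as deposited on the left and after correction of each library on the right. The purple points follow the slope of the grey cloud on the left, and Gabarapl2, Gaa and Map1lc3a are the lowest of the purple points on the right.

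The library WT 2 bore on the same genes. Its 40 values had a median of −0.30 relative to the WT mean, below every other library, where the Maf1-/- libraries were at −0.22 to −0.060 and the other WT libraries at −0.015 to 0.091. In WT 2, 27 of the 40 lay below the WT mean, against 23 to 34 in the Maf1-/- libraries and 8 to 23 in the other WT libraries. Without WT 2, 2 of the 40 passed both thresholds, where 6.79% of all genes passed: Gaa at −1.32 and Map1lc3a at −1.19, each with an adjusted p of 0.0065 (limma). At an unadjusted p under 0.05, 19 of the 40 were then lower, where 25.8% of all genes were, and 4 were higher, where 17.7% of all genes were, and the median log2 fold change was −0.204. Ulk1 was at −0.74 (adjusted p = 0.031) and Tfeb at −1.04 (adjusted p = 0.019). WT 2 is labelled as the other WT livers are, and the part it has in the results was not tested further.

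Other fits that reduce the spread between libraries also had members past the threshold. The study added factors of unwanted variation to its own tests. With 1 factor taken from the residuals, the 4 genes Gaa (adjusted p = 6.2e-05), Map1lc3a (adjusted p = 3.3e-04), Tfeb (adjusted p = 7.9e-04) and Ulk1 (adjusted p = 0.0029) passed by limma, all lower, where 8.09% of all genes passed. At an unadjusted p under 0.05 that fit had 17 of the 40 lower and 4 higher, where 24.2% of all genes were lower and 17.2% higher. With libraries weighted by their spread (WT 2 at 0.17, the lowest weight) 7 passed, where 15.2% of all genes did: Gaa, Map1lc3a, Tfeb, Gabarapl2 and Wipi1 lower and Lamp2 and Atg3 higher. At an unadjusted p under 0.05 the weighted fit had 18 lower and 5 higher, where 29.3% of all genes were lower and 21.0% higher. With the GC and length correction and 1 factor together, 2 passed, Gaa (−0.55, adjusted p = 0.0041) and Gabarapl2 (−0.67, adjusted p = 0.0085), where 0.737% of all genes did. The factor is drawn from the same values that it adjusts. Gaa passed in the 4 fits of this kind, that without WT 2 included.

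Further genes of autophagy and the lysosome were set beside the 40. Of 129 named genes outside the 40, 125 were found, 0 passed, 24 were lower and 4 higher at an unadjusted p under 0.05, and the median log2 fold change was −0.108 (−0.015 after the GC and length correction). At that p 13.2% of all genes were lower and 9.90% higher (limma), shares that stand beside each list below. Among 34 other hydrolases and cofactors 9 were lower and 1 higher. The 2 with the smallest p were Grn (progranulin, a lysosomal protein precursor) at −0.81 ± 0.23 and Psap (prosaposin, which yields the activators of sphingolipid hydrolases) at −0.43 ± 0.14 (SE). Grn had 6.63, 7.19, 6.40, 6.10 and 6.48 in Maf1-/- livers, while WT 2 had 6.44 and the other 6 WT livers lay at 7.26 or above. The share of all genes that lie apart in this way was not computed. After the GC and length correction Grn was at −0.49 (unadjusted p = 0.0037).

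Among 24 other autophagy genes 5 were lower and 2 higher, where 13.2% of all genes were lower and 9.90% higher. Atg4a, an ATG8 protease, had 3.37, 3.23, 3.34, 3.61 and 3.79 in Maf1-/- livers and at most 3.22 in WT livers, at 0.41 ± 0.12 on the log2 scale (SE, adjusted p = 0.19 by limma). Its groups thus did not overlap, as held for 0.586% of all genes. Plekhm1, an adaptor for fusion with the lysosome, was at −0.68 ± 0.22 (SE). Of 10 selective autophagy receptors and stress genes found, 3 were lower and 1 was higher. The higher one was Ncoa4, the receptor for ferritin, at 0.44 ± 0.13, and Sesn2, a leucine sensor upstream of mTORC1, was at −0.68 ± 0.22 (SE). Among 21 other membrane and transport proteins 2 were lower, Cln3 at −0.39 and the chloride exchanger gene Clcn7 at −0.48. Among the 13 other V-ATPase subunits found 4 were lower, with Atp6v1f at −0.47 and Atp6v0b at −0.31 having the smallest p. Of 23 nutrient regulators of TFEB and ULK1 found, 1 was lower at that p, Tsc2 (an inhibitor of mTORC1) at −0.43, and Fnip1, part of the folliculin complex, was at 0.27 with an unadjusted p of 0.054 (limma). The adjusted p of these 12 genes was 0.19 to 0.22.

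Lysosome genes are highly expressed in macrophages, so the other cells of the liver were set beside them. At an unadjusted p under 0.05, 13.2% of all genes were lower and 9.90% higher (limma), shares that stand beside each marker list below. Of 12 Kupffer cell and macrophage markers, all of them found, 0 had an unadjusted p under 0.05 (limma, 0 passing). Their log2 fold changes were negative for 10 of the 12, with a median of −0.182 (0.038 after the GC and length correction), beside −0.165 for the 40 genes, and their part in the values of the lysosome genes was not tested. Their summed level was 386 to 570 RPM in Maf1-/- and 369 to 683 in WT livers. Liver endothelium (7 markers, 0 at that p) was at 382 to 478 in Maf1-/- and 376 to 489 in WT livers. Stellate cell markers (5, of which 1 was higher at that p) summed to 475 to 726 in Maf1-/- and 394 to 579 in WT livers. Their log2 fold changes were positive for 4 and negative for 1, Des at −0.33. Of the leukocyte markers 4 of 6 were found, without Cd3e and Cd79a. At that p 1 was lower, while 3 of the 4 log2 fold changes were positive, with a median of 0.20. They summed to 30.2 to 53.5 RPM in Maf1-/- and 21.1 to 39.6 in WT livers. Of 4 cholangiocyte markers 1 was lower at that p, and 3 of the 4 log2 fold changes were negative.

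Divided by the length of their exons, the levels of the 40 genes covered a wide range. In Maf1-/- livers the geometric means ran from 0.34 RPM per kb for Tfeb to 356 for Ctsl, and in WT livers from 0.58 for Tfeb to 309 for Ctsl. Second came Lamp1, at 248 in Maf1-/- and 265 in WT livers, within the spread of Ctsl in WT livers. Among the ATG8 proteins the order per kb was the same in both genotypes: Gabarapl1 at 125 in Maf1-/- and 144 in WT livers, Gabarap at 119 and 110, Map1lc3b at 27.3 and 33.8, Map1lc3a at 8.46 and 16.5, and Gabarapl2 at 3.95 and 6.07. Map1lc3a and Gaa (8.14 in Maf1-/- and 16.8 in WT livers) thus sat in the middle of the list, while Ulk1 (1.87 and 2.82), Wipi1 (1.70 and 2.37) and Tfe3 (2.38 and 2.69) were, with Tfeb, at its low end.

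**Figure D4:**
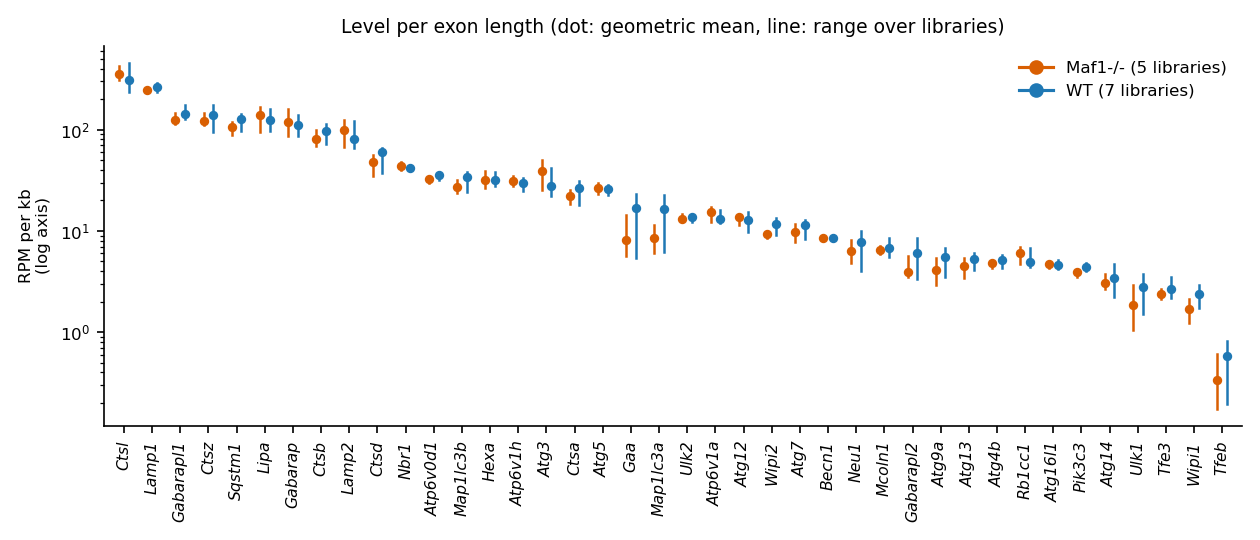
Level of each of the 40 genes per exon length (vertical log axis, RPM per kb), with the geometric mean (dot) and the range over libraries (line) for Maf1-/- livers (5, left of each pair) and WT livers (7, right of each pair). Ctsl and Lamp1 lead, Tfeb is lowest, and the lines of the 2 genotypes overlap for each gene.

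The 40 genes lie on 16 chromosomes, with at most 7 on 1 chromosome. Of them 12 overlap another listed gene, 9 on the opposite strand and 3 on the same strand. The library kit keeps strand, but the strand setting of the counting is not given in the sources used here, so reads of Atg9a, Rb1cc1, Sqstm1, Lamp1 or Map1lc3b may include some from their partner.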

How the data were processed

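Total RNA of perfused liver from 5 Maf1-/- and 7 WT mice was sequenced, with a stranded kit that depletes rRNA and globin RNA. Trimming by the authors used cutadapt 1.8, alignment STAR 2.5.2b (GRCm38), counting per gene HTSeq 0.6.1 and scaling edgeR 3.14.0 (TMM), and they kept expressed genes. The deposited values are log2 values for 13304 genes. They are named RPKM. Yet 100% of them give back whole reads (tolerance 0.001), as log2 of the reads, with 0.5 added, per scaled library, and gene length does not enter, so a level per kb was computed here from exon length. Precision at low levels follows the reads, which are given for Tfeb. RSEM 1.2.31 and limma 3.28.21 are also in the submitters' processing notes. The scores of RNA polymerase III loci were not used.

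The comparison of genotypes used limma 3.58.1 (R 4.3.3) with empirical Bayes variances without trend, equal weights and no factor, and Benjamini-Hochberg adjusted p over all genes, after a check of the script on simulated data. Exact permutation tests, 2-sided, went over all 792 divisions of the libraries (smallest p 0.0013). GC content and exon length came from NCBIM37 exons joined by gene identifier (93.8% of genes), and a loess trend on both (span 0.4) was removed from each library for the correction. Symbols matched the members directly. Values in each library are given for members with an unadjusted p under 0.05 (at most 4 in each role group) and for Tfeb, Tfe3, Ulk1, Map1lc3b, Sqstm1, Lamp1, Ctsd and Mcoln1. In the other lists the 2 genes with the smallest p are named. The members, lists and tests were chosen with earlier results of these data known. Alternatives were library weights, a variance trend, voom on the returned reads, median centring, a pseudocount of 1, a filter at a mean log2 value of 1, 1 residual factor, the GC and length correction, a replicate block, and each library left out.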

Additional observations from a re-analysis of the deposited data

Results flagged for a closer look

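In 20 of 86 sets of libraries of 1 genotype (the 40 genes and technical measures, in 5 Maf1-/- or 7 WT libraries), the highest or lowest value stood further from the rest than Dixon's 95% criterion allows, where chance would give about 4.3. Of these values 15 belonged to WT 2. In this library Gaa was at 4.70, where the other 6 WT livers were at 6.38 to 6.77, and Ctsd was at 6.57, where the others were at 7.27 to 7.39. Tfeb was at 0.15, Ulk1 at 2.97, Atg13 at 4.16, Wipi1 at 2.94 and Atg7 at 4.91, each below the other WT livers. So were Map1lc3a at 2.88, Map1lc3b at 5.38, Sqstm1 at 8.34, Ctsa at 6.41 and Neu1 at 3.91. Above the other WT livers were Rb1cc1 at 6.65 and Atp6v1a at 6.61. The slope of WT 2 on GC content, −0.57 log2 units per 10 points, lay below the 0.14 to 0.35 of the other WT libraries.

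In Maf1-/- liver 2, Rb1cc1 was at 6.10, below the 6.51 to 6.65 of the other 4, and Gabarapl2 was at 3.72, above their 3.02 to 3.16. In WT 1, Atg12 was at 4.61, below the other WT livers, and the library held 55787438 reads, more than the 35003720 to 43721818 of the others. In WT 5, Ulk2 was at 6.19, below 6.31 to 6.38 in the other WT livers. No cause of these values was tested.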

How the results depend on the processing

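Of 384 recomputed fold changes of the 16 named genes under 24 settings, 350 kept their sign and side of the threshold, 14 passed it and 20 had the other sign. With 1 residual factor 4 members passed, with 4 higher and 17 lower at an unadjusted p under 0.05 (24.2% of all genes were lower and 17.2% higher). In that fit 9 of the 125 further genes of the route passed, where 8.09% of all genes did. With library weights 7 members passed, with 5 higher and 18 lower (29.3% of all genes lower, 21.0% higher). There 21 of the 125 further genes passed, where 15.2% of all genes did. Median centring gave 5 lower members (9.31% of all genes), and moved Lamp1 to 0.0051 and Mcoln1 to 0.013. The correction for GC content and length gave 1 higher member and put Tfe3 at 0.0057, Atg9a at 0.018, Lamp1 at 0.0053, Mcoln1 at 0.19 and Ctsd at 0.025 (the same with 1 factor, where 2 members passed). Without WT 2, chosen after the data were seen, it put them at 0.018, 0.050, 0.013, 0.23 and 0.024. Wipi2 had an exact permutation p of 0.058 after the correction.

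With single libraries left out, 0 to 2 members passed, 0 to 4 were higher and 4 to 19 lower at an unadjusted p under 0.05 (5.59% to 17.7% of all genes higher, 6.52% to 25.8% lower), 0 to 10 further genes passed, and the median was −0.204 to −0.144. Without WT 2 there were 19 lower, where 25.8% of all genes were lower, and 2 members passed, where 6.79% of all genes passed. Without Maf1-/- 3 or WT 3 there were 4 lower (6.52% and 8.43% of all genes). Without Maf1-/- 4 or WT 1, 4, 5, 6 or 7 there were 5 lower (7.22% to 11.5% of all genes). The exact permutation p of Gaa lay between 0.0022 and 0.082.

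Replicate numbers are shared by both genotypes, but same-numbered libraries did not deviate together (correlations of −0.46 to 0.23). These correlations over all genes also carry each library's GC trend, so they cannot settle whether the numbers pair the livers. A replicate block, which drops WT 6 and WT 7, gave 0 higher and 0 lower members at that p (2.53% and 1.77% of all genes), and with the GC and length correction 0 higher and 1 lower, with Atg9a at 0.016, Mcoln1 at 0.14 and Ctsd at 0.011. Depth limits Tfeb most, with 36 reads in its thinnest library. The causes of these shifts were not tested.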
